A study of Mus musculus with 49 samples.

Results

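The clustered, replication-type histone genes of the mouse encode the bulk of the H1, H2A, H2B, H3 and H4 proteins and are named by their gene cluster. They were taken here as every gene of the count table whose symbol starts with Hist1h, Hist2h, Hist3h or Hist4h. This gave 70 symbols, of which 3 are pseudogenes and were left out, so that 67 of 52636 genes were described. The Hist1 cluster on chromosome 13 held 54 of them, the Hist2 cluster on chromosome 3 held 10, the Hist3 cluster on chromosome 11 held 2 and the Hist4 locus on chromosome 6 held 1. By encoded protein there were 6 H1, 18 H2A, 18 H2B, 12 H3 and 13 H4 genes.

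The libraries came from the nucleus accumbens (NAc) of C57BL/6J mice and addressed how the way of isolating D1- or D2-type medium spiny neurons (MSNs), the projection neurons that express the dopamine receptor Drd1 or Drd2, shapes the RNA that is read. For whole cell-FACS, fresh tissue of males was digested and cells were sorted by a heterozygous cytoplasmic fluorophore under the Drd1 or Drd2 promoter. For nuclear-FACS, frozen tissue of males was used, and sorting relied on nuclear GFP from the heterozygous Thy1-loxPSTOPloxP-EGFP-F transgene after crossing to Drd1-cre or Drd2-cre. In RiboTag, polysomes carrying HA-tagged Rpl22 were pulled down from fresh tissue of Drd1-cre or Drd2-cre mice with the Rpl22-loxPexon4loxP-exon4-HA allele, in males and in females. The ages of the mice are not given in the sources used here, and each sample was 1 mouse. All mice carried a reporter or tag, and none was a wild type control.

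After repeat columns were summed there were 8 whole cell D1, 6 whole cell D2, 6 nuclear D1, 5 nuclear D2, 6 RiboTag D1 male, 6 RiboTag D2 male, 5 RiboTag D1 female and 5 RiboTag D2 female libraries. The sample titles name 8 whole cell D2 samples, whereas the columns hold 6 D2 library numbers, 1 of them in a pair of lanes. A further column is by its name a repeat of D1 number 1. Its correlation with number 1 was 0.986, and other pairs of whole cell D1 columns had 0.837–0.984. The paper divides the whole cell samples between D1 and D2 in other numbers, with each sample from its own mouse. Total counts ranged from 3701255 to 68777008 per library.

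Replication-dependent histone mRNAs are made mainly in S phase. Instead of a poly(A) tail they end in a conserved stem-loop that the stem-loop binding protein Slbp holds, and which governs their processing, translation and decay. MSNs are postmitotic neurons, and most of the histone that they deposit is of the replacement type, from polyadenylated mRNAs. The libraries were made from ribosome-depleted total RNA, so a poly(A) tail was not needed for a transcript to be read.

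The stem-loop could be read in the GENCODE vM21 transcripts (GRCm38) of the genes. The letters CTTTTNAG, set in a stem of 6 bases with at least 5 pairs and a loop of 4, were found on the transcript strand in 44 of the 67 genes (65.7%). The same search found them in 807 of 55383 other genes (1.46%). The sites below are printed 5′ to 3′ because they separate the H4 genes from the others and because the abundant H2A pair carries 1 and the same site. Capitals mark the stem-loop, and the flanks are in lower case.
Hist2h2aa2: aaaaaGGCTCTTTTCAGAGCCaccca
Hist2h2aa1: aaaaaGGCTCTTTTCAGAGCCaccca
Hist2h2ac: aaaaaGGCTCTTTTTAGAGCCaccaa
Hist3h2a: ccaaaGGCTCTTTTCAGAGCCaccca
Hist1h1e: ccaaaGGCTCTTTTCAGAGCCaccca
Hist1h3d: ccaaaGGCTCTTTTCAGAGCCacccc
Hist1h4h: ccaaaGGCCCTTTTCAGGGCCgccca
Hist1h4d: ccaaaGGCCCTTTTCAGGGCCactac
Hist2h4: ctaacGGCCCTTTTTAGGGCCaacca
Hist1h4b: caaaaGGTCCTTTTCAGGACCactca
Of the genes with a stem-loop, 26 H1, H2A, H2B and H3 genes shared the form of Hist1h1e. The 11 H4 genes with a stem-loop had the stems seen in Hist1h4h, Hist2h4 or Hist1h4b. The annotated transcripts of 23 genes, among them Hist2h2bb and Hist1h4k, did not hold these letters, which says only that the letters are not in the annotated models. Tails past the stem-loop were read in the model with the best-paired stem, or the shortest tail among equals. In 18 genes that model ran on for 300 bases or more past the stem-loop, and in 21 it ended within 60 bases of it.

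Gene families of this kind are hard to count. Multi-mapping fragments were dropped by the authors, who counted over the whole gene body without regard to strand, so that a fragment on overlapping genes was counted for each. Windows of 100 bases of the transcripts were searched for in genes that did not overlap the gene itself. In 58 of the 67 genes at least 1 window occurred in such a gene, and in 24 at least 50% of the windows did. Hist2h2aa2 (chr3:96239749-96240276, minus strand) shared 100% of its windows, chiefly with its neighbour Hist2h2aa1 (chr3:96245497-96246082, plus strand), which shared 95.9%. Their split is therefore uncertain. Hist2h2bb, Hist3h2a, Hist1h4d, Hist2h4 and Hist2h2be shared none. However, Hist2h2bb overlaps Gm20628 and Gm42743, and Hist3h2a overlaps Gm44313 and Trim17, so that their counts may hold fragments of those genes. The same holds for Hist2h2aa2, which overlaps Gm20632 and Gm47311, Hist2h2aa1, which overlaps Gm20633, Gm20634 and Gm47313, and Hist2h2ac, which overlaps Gm44492. Of the 67 genes, 24 overlapped another annotated gene, including Hist1h2be, whose 37455-base span overlaps an end of Hist1h1e. Fragments on the shared stretch could thus count for both.

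Levels are given in FPKM, fragment counts scaled to the gene's span and to the library size, with library sizes scaled by TMM over all 47 libraries. The scale matters between methods. The 10 highest genes held 84.9–88.3% of the counts of each RiboTag library, 2.70–54.5% in whole cell and 5.23–66.9% in nuclear libraries. Over 50% of the counts lay in 10 genes in whole cell D2 number 2 and in nuclear D1 numbers 1, 5 and 6. Drd1 was higher in the D1 than in the D2 libraries of each method, without overlap. Drd2 was 0.483–1.63 FPKM in nuclear D1 and 0.869–2.05 in nuclear D2, so that these groups overlapped. The 5 genes of the D2-MSN list summed to 7.39–53.7 FPKM in nuclear D1 and 1.90–7.12 in nuclear D2, a sum against the labels. Gene by gene the list was split. In the test of nuclear D2 over D1 described below, 4 were tested, with 1 higher, 1 lower and a median log2 fold change of -0.58. In bulk libraries fewer cells of a type and less RNA per cell cannot be told apart.

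Summed over the 67 genes, the median level was 59.4 FPKM in whole cell D1 (18.5–132), 29.8 in whole cell D2 (21.9–61.7), 27.1 in nuclear D1 (9.37–66.9) and 7.78 in nuclear D2 (6.38–8.62). In RiboTag it was 187 in D1 males (168–208), 167 in D2 males (161–196), 161 in D1 females (142–177) and 179 in D2 females (170–212). Every RiboTag library thus stood above every sorted library on this scale. As CPM of the plain library total, the same genes took 60.1–385 in whole cell libraries, 44.0–64.5 for nuclei and 39.0–52.5 for RiboTag, so that the order between methods turned with the scale. The medians on that scale were 49.9 in nuclear D1 and 53.1 in nuclear D2, so that the order of these groups turned as well. A measure that needs no scale is the share of the clustered genes in all histone counts, which here are those of the 67 genes and 11 replacement histone genes. That share was 38.6–65.2% in whole cell, 23.6–47.9% in nuclear and 49.1–58.7% in RiboTag libraries. The RiboTag libraries lay in a narrow band inside the whole cell range, and the nuclear D2 libraries, at 23.6–34.5%, lay below all whole cell libraries. This share takes counts over whole gene bodies, without regard to gene length. Per kilobase of gene span, clustered genes had 2.90–4.42 times the counts of replacement genes in nuclear D2. In whole cell libraries that ratio was 3.46–14.2, so that these ranges overlapped.

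**Figure D1:**
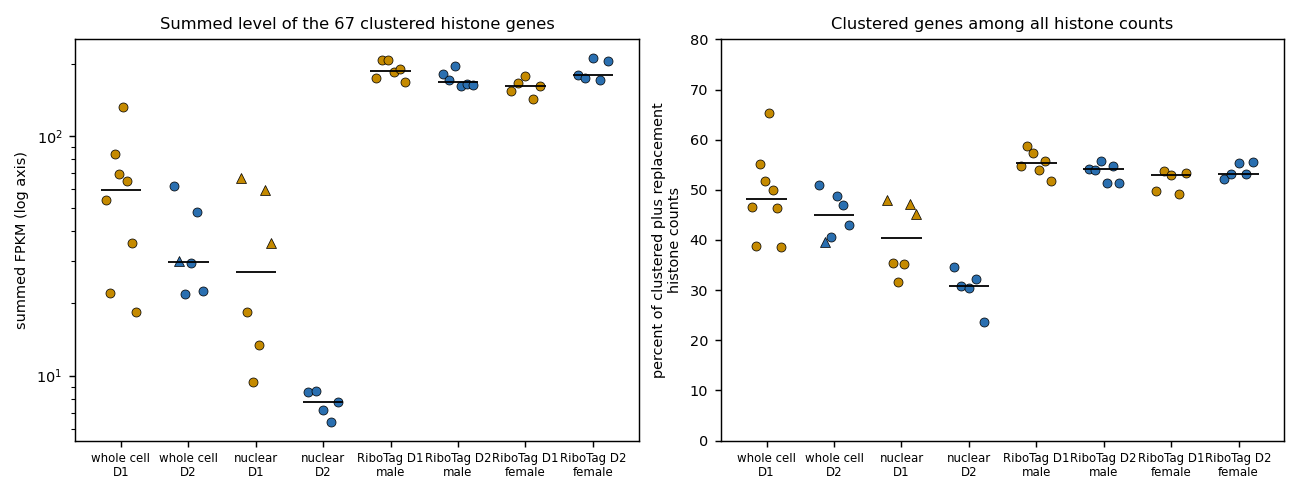
Summed level of the 67 clustered histone genes (left, FPKM on a log axis, TMM scale) and their percent of all histone counts (right) in each library (D1 yellow, D2 blue), with group medians as lines. Triangles mark the 4 sorted libraries in which 10 genes held over 50% of the counts, and the RiboTag libraries stand highest on the left (142–212 FPKM), an order that turns with library totals as the scale.

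The make-up of the histone counts differed between methods, again as shares that need no scale. RiboTag libraries had 31.2–40.4% of the counts of the 67 genes in H2A genes, whole cell libraries 16.0–31.3% and nuclear libraries 9.68–23.2%. For H2B genes the shares were 12.6–18.4%, 24.7–44.4% and 31.2–68.6%, so that RiboTag did not overlap with either. H1 genes held 20.9–27.3% in RiboTag, 5.94–20.9% in whole cell and 9.34–23.3% in nuclear libraries, and H3 genes never more than 6.13%. Much of the H2B share was 1 gene. Hist1h2be, whose span of 37455 bases holds a longest transcript of 2506 and overlaps Hist1h1e, had 14.0–50.1% of these counts in nuclear libraries, 5.43–26.0% in whole cell libraries and 1.33–3.60% in RiboTag libraries.

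In whole cell libraries the highest medians were those of Hist2h2bb (6.88 FPKM), Hist1h4h (4.02), Hist3h2a (3.54), Hist1h4d (2.51), Hist1h4k (1.76) and Hist2h2ac (1.66). These encode H2B, H4, H2A, H4, H4 and H2A. In nuclear libraries they were those of Hist2h2ac (0.724), Hist3h2a (0.580), Hist2h2bb (0.516), the linker histone gene Hist1h1e (0.469), the H2B gene Hist3h2ba (0.407) and the H4 gene Hist2h4 (0.313). In RiboTag libraries the H2A gene Hist2h2aa1 led (31.6), followed by Hist2h2bb (17.0), Hist2h2aa2 (12.6), Hist2h2ac (11.6), Hist1h4h (9.89) and Hist1h4d (7.29). Hist2h2bb and Hist2h2ac were among the leading 6 in all methods, and the Hist2h2aa pair in RiboTag alone. A median of at least 1 FPKM was reached by 14 of the 67 genes in whole cell D1 and 7 in whole cell D2, by 8 in nuclear D1 and 0 in nuclear D2, and by 32 and 28 in RiboTag D1 and D2 males.

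**Figure D2:**
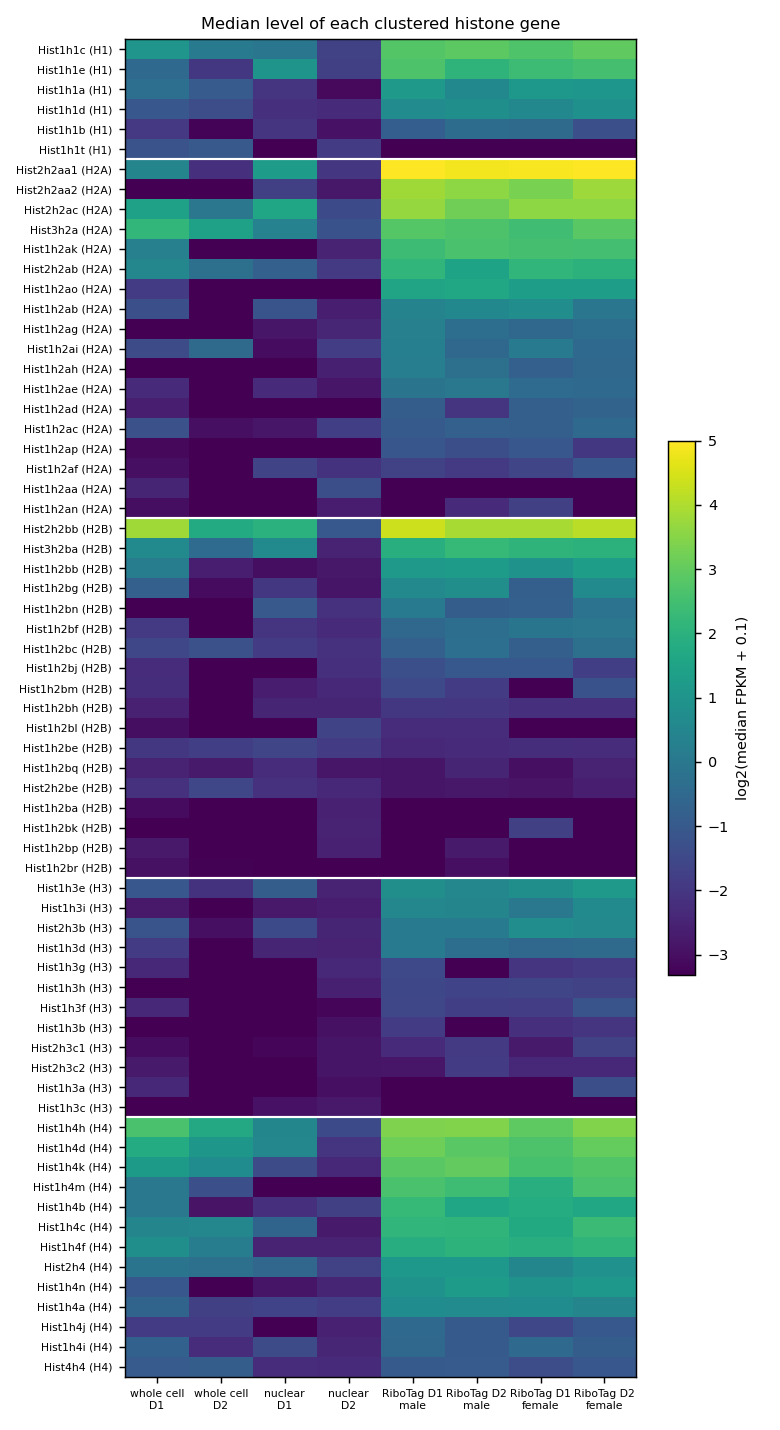
Median level of each of the 67 genes in each group, as log2(median FPKM + 0.1) on the common TMM scale, grouped by encoded histone and ordered by the RiboTag D1 male level. The brightest cells are Hist2h2aa1 and Hist2h2bb in RiboTag, and the order between methods turns with library totals as the scale, as for the summed level.

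The low end was close to background. The 1430 olfactory and vomeronasal receptor genes, taken as background, stood at 0.0248–0.0887 FPKM in whole cell, 0.00611–0.0912 in nuclear and 0.00063–0.00139 in RiboTag libraries. At or below this level lay 11–27 of the 67 genes in a whole cell D1 library, 35–40 in a whole cell D2 library, 14–48 in a nuclear library and 7–18 in a RiboTag library. In whole cell D2, 13 genes had no count in any library. The testis-type linker histone gene Hist1h1t went the other way. It had 0–32 counts in whole cell D1 and 0–50 in whole cell D2, and its sum over the 22 RiboTag libraries was 1 count.

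Hist2h2aa2 was nearly uncounted outside RiboTag. It had 1 count in whole cell D1 number 1 and 0 in the other whole cell libraries, among 117431554 counts in D1 and 105036542 in D2. In nuclear libraries it had 0–7 counts. On these it was called higher in nuclear than in whole cell libraries, with log2 fold changes of 4.26 in D1 and 3.76 in D2. The groups overlapped in both cell types, and such values depend on the fit's prior count. In RiboTag D1 males the counts were 62, 72, 97, 89, 67 and 65, and in D2 males they were 71, 41, 83, 73, 64 and 66. In D1 females they were 50, 58, 74, 50 and 78, and in D2 females 88, 64, 131, 77 and 90. The RiboTag male libraries did not overlap with the whole cell libraries in either cell type. With the whole cell libraries set to the smallest level that they can show, 3 counts each, Hist2h2aa2 was at least 10.1-fold higher in RiboTag D1 males and at least 11.1-fold higher in D2 males, as medians of CPM of the library total. The lowest RiboTag library was at least 6.92-fold and 6.16-fold above the highest such floor. On the TMM scale the bounds were 125-fold and 81.6-fold, so that the direction was the same on both scales. Floors cover counting error only. All windows of this gene also occur elsewhere and multi-mapping fragments were dropped, so these are bounds on counts and not on RNA. Its counts may also hold fragments of Gm20632 and Gm47311, which it overlaps. The part of mapping in the difference between methods was not tested.

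Hist2h2aa1, its neighbour, had 150, 19, 40, 47, 36, 41, 36 and 8 counts in whole cell D1 and 14, 13, 6, 0, 2 and 3 in whole cell D2. In RiboTag males it had 161, 196, 226, 223, 171 and 121 counts in D1 and 185, 130, 266, 203, 147 and 159 in D2. It was the most abundant gene of the 67 in RiboTag, and its FPKM did not overlap between RiboTag and whole cell in either cell type, although as CPM of the library total whole cell D1 number 1 (7.24) lay above every RiboTag D1 male library (4.46–6.82). The pair together made up 14.0–20.1% of the counts of the 67 genes with RiboTag, 0.0422–5.39% with nuclear-FACS and 0–4.19% with whole cell-FACS. Within RiboTag, Hist2h2aa1 had 1.86 to 3.81 times the counts of Hist2h2aa2. That ratio was 150 in whole cell D1 number 1 and 0 to 11.9 in the nuclear libraries that counted Hist2h2aa2. In RiboTag minus whole cell, edgeR's log2 fold change of Hist2h2aa1 was 4.46 (SE 0.52, adjusted p = 1.85e-09) in D1 and 6.97 (SE 0.69, adjusted p = 6.53e-11) in D2. With library totals as the scale the D1 value was 0.89 with an adjusted p of 0.124.

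**Figure D3:**
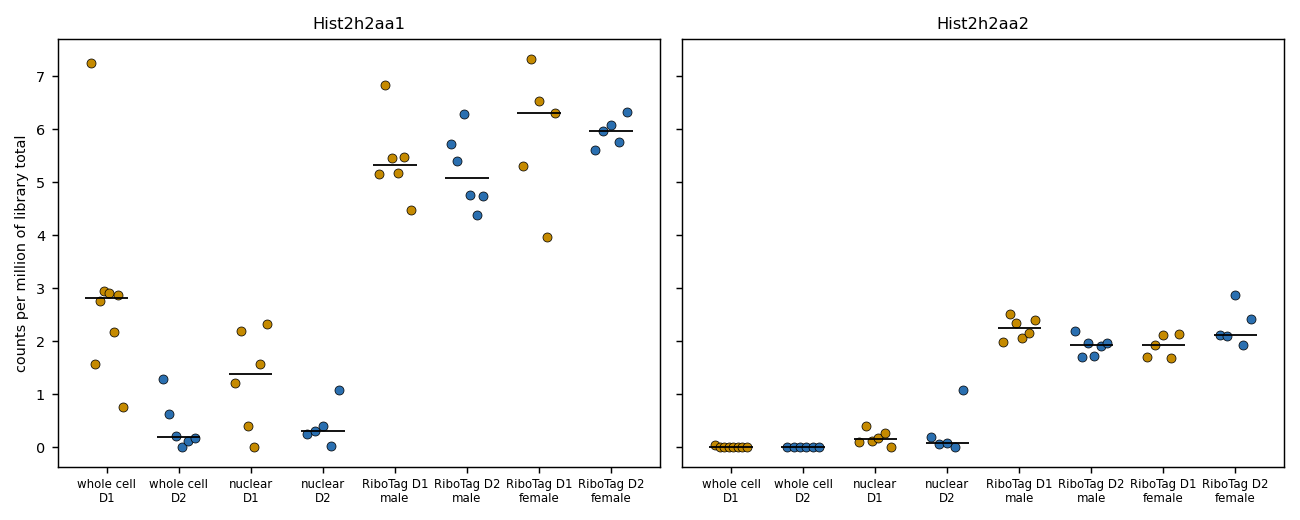
CPM of the library total for the neighbouring H2A genes Hist2h2aa1 (left) and Hist2h2aa2 (right) in each library (D1 yellow, D2 blue), with group medians as lines. Hist2h2aa2 is at or near 0 in the whole cell libraries, which hold 1 count between them, and above 1.7 in every RiboTag male library.

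Between RiboTag and whole cell libraries of males, 37 of the 67 genes had enough counts to be tested. A gene needed an FPM above 1 in 2 of all male libraries, so that it could pass through RiboTag alone. Hist2h2aa2, for example, had 1 count in whole cell D1 and 0 in whole cell D2. The values below describe the genes that passed, and a direction over them is not given as a result. In D1, 20 were higher and 2 lower in RiboTag, where 21.3% of all tested genes were higher and 59.3% lower. In D2, 28 were higher and 3 lower, against 21.9% and 59.3% of all tested genes. The histone genes had a median log2 fold change of 1.48 in D1 and 2.27 in D2, and all tested genes one of -1.86 and -1.87, so that 36 of 37 histone genes lay above the median gene in both. Other lists stood as far above the median gene. The 11 replacement histone genes stood 3.47 (D1) and 3.82 (D2) above that median, the 4 shared MSN genes Ppp1r1b, Rgs9, Gad1 and Bcl11b stood 3.84 and 3.74 above it, and the clustered genes 3.34 and 4.14. The tested genes include non-coding ones. Protein-coding genes alone had a median of -0.81 in D1 and -0.85 in D2, and the clustered genes stood 2.28 and 3.11 above it. With library totals as the scale the calls turned to 1 higher and 28 lower in D1 and 5 higher and 17 lower in D2, while the distance to the median gene was 3.38 and 4.20. Both cell types' contrasts with whole cell were fitted together with the nuclear ones and share these whole cell libraries.

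By protein, 9 of 9 tested H2A genes were higher in RiboTag D2, as were 8 of 12 H4, 3 of 4 H3, 5 of 7 H2B and 3 of 5 H1 genes. In D1 the counts were 6 of 9 H2A, 7 of 12 H4, 3 of 4 H3, 1 of 7 H2B and 3 of 5 H1. Hist1h1e, a linker histone gene, had 0.267–1.38 FPKM in whole cell D1 and 4.96–7.05 in RiboTag D1 males, with a log2 fold change of 3.16 (SE 0.47, adjusted p = 2.4e-07). In D2 it had 0–0.662 and 3.63–5.55 FPKM, with 4.15 (SE 0.55, adjusted p = 3.9e-08), and neither pair of groups overlapped. With library totals as the scale its D1 value was -0.42. The FPKM of Hist1h1c and Hist1h1d, linker histone genes named after their values were seen, did not overlap between RiboTag and whole cell in either cell type. Hist1h1c had 0.586–2.93 FPKM in whole cell D1 and 5.92–8.52 in RiboTag D1 males. With library totals as the scale their D1 log2 fold changes were -1.57 and -1.81, both called lower in RiboTag. In D2 they were -0.46 and -0.81, of which that of Hist1h1d was called lower.

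Other called genes had few counts in some or all groups. The H3 gene Hist1h3i had 0–13 counts in whole cell D1, 0 in every whole cell D2 library, 2–14 in RiboTag D1 and 2–9 in RiboTag D2 males. The H4 gene Hist1h4n had 0–2 counts in whole cell D2 and 7–20 in RiboTag D2 males. The H2A gene Hist1h2ao had 0–6 and 6–22. Hist1h2ak, another H2A gene, had 0–72 counts in whole cell D2, where most libraries had none, and 18–45 in RiboTag D2 males. The H3 gene Hist1h3d had 4–25 counts in whole cell D1 and 9–15 in RiboTag D1 males, and its D1 log2 fold change of 2.37 (SE 0.80) turned to -1.23 with library totals as the scale.

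Lower in RiboTag were Hist1h2be, Hist2h2be and Hist1h1t. Hist1h2be had 0.135–0.183 FPKM in whole cell D1 and 0.0456–0.126 in RiboTag D1 males, which did not overlap (log2 fold change -0.70, SE 0.21, adjusted p = 0.00267). In D2 its log2 fold change was -0.98 (SE 0.22, adjusted p = 0.000166). The H2B gene Hist2h2be, at 0–70 counts in whole cell D2 and 1–3 in RiboTag D2 males, had a log2 fold change of -1.78 (SE 0.78, adjusted p = 0.0348). After background subtraction the calls of Hist1h2be in D1 and of Hist2h2be in D2 were lost (adjusted p 0.0868 and 0.0804).

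The most abundant whole cell gene, Hist2h2bb, differed less. Its levels were 3.14–32.9 FPKM in whole cell D1 and 17.4–24.1 in RiboTag D1 males, and edgeR gave 0.57 (SE 0.53, adjusted p = 0.312). In D2 it had 1.22–18.4 and 12.5–18.6 FPKM and a log2 fold change of 1.47 (SE 0.58, adjusted p = 0.021). The groups overlapped in both cell types. The H4 gene Hist4h4 had 0.166–1.15 FPKM in whole cell D1 and 0.318–0.563 in RiboTag D1 males (log2 fold change -0.21, SE 0.58, adjusted p = 0.744).

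**Figure D4:**
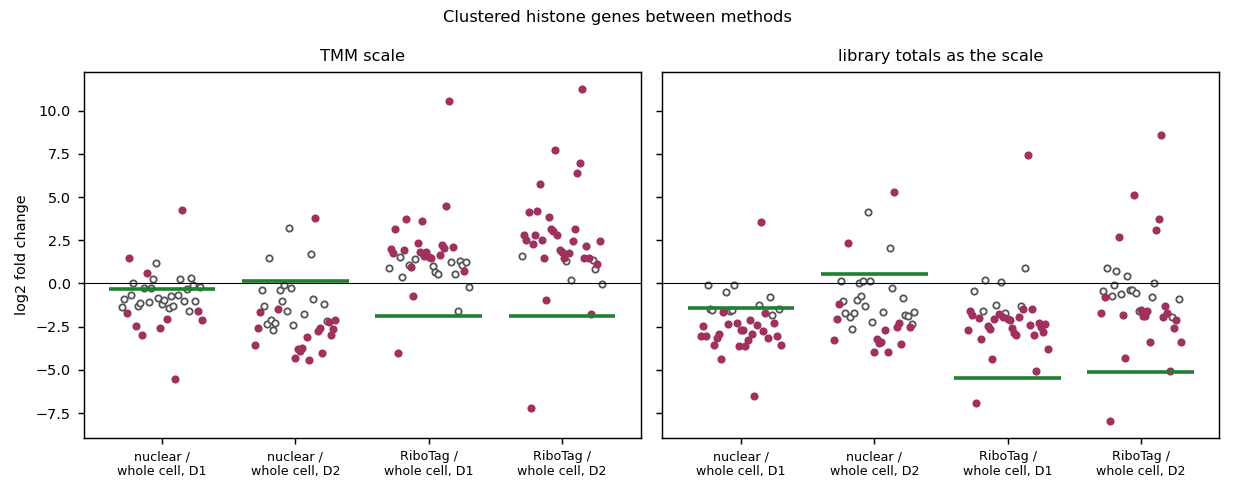
Fitted log2 fold changes of the tested clustered histone genes between methods in D1 and D2 (filled where called, open where not), with TMM (left) and library totals (right) as the scale, and the median of all tested genes as a green line. Between RiboTag and whole cell, 36 of the 37 genes that passed the filter lie above that median with TMM (histone medians 1.48 and 2.27). Hist1h1t lies below it. A gene could pass through RiboTag alone, so no direction is given as a result. Whether the genes lie above 0 turns with the scale. Values of genes without counts in a group, such as Hist2h2aa2, depend on the fit's prior count.

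Between nuclear and whole cell libraries, 3 of 37 tested genes were higher and 8 lower in nuclear D1, against 10.7% and 8.44% of all tested genes. In D2, 1 was higher and 17 lower, against 3.68% and 16.5%. The median log2 fold change was -0.98 in D1, where all tested genes had -0.32, and -2.18 in D2, where they had 0.14. The replacement histone genes were lower in nuclear D2 as well, with 8 of 11 called, and 4 of 4 shared MSN genes were lower. Markers of other cells also differed between these methods. All 5 oligodendrocyte genes were higher in nuclei, with medians of 3.24 in D1 and 2.50 in D2, as were 3 of 5 astrocyte genes in D1 and 2 of 5 in D2. Of the D2-MSN genes, 4 of 5 were higher in nuclear D1 (median 1.63) and 5 of 5 lower in nuclear D2 (median -3.37). The part of these in the result was not tested. With library totals as the scale the calls of clustered genes were 1 higher and 25 lower in D1 and 2 higher and 13 lower in D2. Hist3h2a, an H2A gene, had 1.25–5.35 FPKM in whole cell D2 and 0.200–0.580 in nuclear D2, which did not overlap (log2 fold change -2.98, SE 0.43, adjusted p = 4.21e-06). In D1 it had 1.23–6.87 and 0.555–2.59 FPKM (-1.60, SE 0.37, adjusted p = 0.00201).

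Of the H4 genes, 8 of 12 were lower in nuclear D2 and 4 of 12 in nuclear D1. Hist1h4m was nearly absent from nuclei, with 2 counts in 1 of the 6 nuclear D1 libraries against 3–82 in whole cell D1. Hist1h4h had 1.48–6.25 FPKM in whole cell D2 and 0–0.368 in nuclear D2 (log2 fold change -3.72, SE 0.68, adjusted p = 0.000114). Hist1h4c had 0.602–2.11 and 0–0.106 FPKM (-4.31, SE 0.70, adjusted p = 2.48e-05). These H4 groups did not overlap. In D1 the H4 genes Hist4h4 (-2.13, SE 0.65, adjusted p = 0.0191), Hist1h4f (-2.03, SE 0.73, adjusted p = 0.0456) and Hist1h4b (-2.57, SE 0.93, adjusted p = 0.0475) and the H2B gene Hist1h2bb (-2.97, SE 1.02, adjusted p = 0.0368) were lower, each by a call that background subtraction ended. The H2A gene Hist1h2ac, at 0.183–0.739 FPKM in whole cell D1 and 0–0.174 in nuclear D1 without overlap, was lower as well (-2.46, SE 0.68, adjusted p = 0.0094).

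In nuclear D1, Hist1h1e and Hist1h2be were higher than in whole cell D1, with log2 fold changes of 1.46 (SE 0.46, adjusted p = 0.0241) and 0.64 (SE 0.20, adjusted p = 0.0209). Both turned below 0 with library totals as the scale. Hist1h1e was at 0.469–3.96 FPKM in nuclear D1 and lay at 2.40 to 3.96 in the 3 libraries in which 10 genes held over 50% of the counts. Without those libraries and the whole cell one of that kind, its value was 0.02, and 18 rather than 8 of the clustered genes were lower in nuclear D1.

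Between nuclear D2 and D1, 18 of the 67 genes were tested, and 0 were called higher and 1 lower. The share of all tested genes called lower was 9.07%, and 3.20% were called higher. A gene needed 1 FPKM in 1 library, and on the common TMM scale 0 of the 67 genes had a median of that size in nuclear D2, whereas 8 had one in nuclear D1. A direction over the genes that passed is therefore not given as a result. Hist1h1e had 3.96, 1.33, 0.469, 0.579, 3.36 and 2.40 FPKM in D1 and 0.199, 0.205, 0.216, 0.180 and 0.195 in D2. The D1 libraries all lay above all D2 libraries, and the log2 fold change was -2.12 (SE 0.45, adjusted p = 0.0102). Hist2h2bb, with 0.281–15.7 FPKM in D1 and 0–0.516 in D2, passed the adjusted p alone (-2.68, SE 0.82, adjusted p = 0.0405, where 16.1% of all genes did) but not the limit on the standard error.

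The nuclear difference moved with libraries. The clustered genes summed to 66.9, 59.4 and 35.9 FPKM in nuclear D1 numbers 1, 5 and 6, in which 10 genes held 60.9–66.9% of the counts, and to 18.4, 9.37 and 13.4 in the other 3. This gap was not seen as CPM of the plain library total. On that scale numbers 1, 5 and 6 took 47.9, 54.7 and 48.4, and the median of all 6 nuclear D1 libraries was 49.9. Without numbers 1, 5 and 6 there were 8 clustered genes tested, none was called in either direction, and Hist1h1e was at -1.08 (adjusted p = 0.0873). With all libraries kept, 0 of 7 tested replacement histone genes were called higher and 3 lower, against 3.20% and 9.07% of all tested genes. The 3 were H1f0 (-1.97, adjusted p = 0.0367), H2afz (-1.53, adjusted p = 0.04) and H1fx (-1.71, adjusted p = 0.0427). Their list summed to 3.36–15.8 FPKM in nuclear D1 and 1.75–2.68 in nuclear D2. The same filter applied, so a direction over these genes is not given as a result either. Oligodendrocyte markers were at 6.99–22.5 FPKM in nuclear D1 and 2.31–6.65 in nuclear D2, summed over 5 genes, of which none was at 0 in all libraries of a group. Within the nuclear fit none of these 5 genes was called, with a median log2 fold change of -0.05, while 2 of 4 shared MSN genes were lower, with a median of -0.59. The part of these in the result was not tested.

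In whole cell libraries, 36 of the 67 genes were tested between D2 and D1, and edgeR called 0 higher and 0 lower, where 0.361% and 0.704% of all tested genes were called. At an unadjusted p under 0.05 there were 8, and DESeq2 called 1 lower. Hist2h2aa1 was at 0.282–3.49 FPKM in D1 and 0–0.656 in D2 (log2 fold change -2.58, SE 0.81, adjusted p = 0.113). Hist2h2bb was at 3.14–32.9 in D1 and 1.22–18.4 in D2 (-1.54, SE 0.49, adjusted p = 0.12). The levels of both overlapped between the cell types. By the lane labels in the study's library names, D1 and D2 whole cell libraries were run in different lanes, so that lane and cell type cannot be told apart.

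In RiboTag males, 13 of the 67 genes were tested between D2 and D1, of which 0 were called higher and 1 lower. The shares of all tested genes called were 0.944% and 1.62%. Hist1h1e had 5.64, 6.64, 6.02, 6.63, 7.05 and 4.96 FPKM in D1 and 5.13, 3.73, 5.55, 4.20, 4.07 and 3.63 in D2. It fell by 0.49 on the log2 scale (SE 0.11, adjusted p = 0.00442), with overlapping groups. Hist2h2bb passed the adjusted p alone at -0.46 (SE 0.12, adjusted p = 0.0124), as did the H2B gene Hist1h2bc at 0.79 (SE 0.16, adjusted p = 0.00122), named after its values were seen. Both were below the limit on the mean count. Of all tested genes, 9.32% passed the adjusted p alone. Hist1h2bc was at 0.288–0.568 FPKM in D1 and 0.686–1.01 in D2, without overlap, while Hist2h2aa1 (-0.03, SE 0.10, adjusted p = 0.909) and Hist2h2aa2 (-0.20, SE 0.11, adjusted p = 0.292) did not pass.

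In RiboTag females, 14 genes were tested, and edgeR called 0 in either direction, against 0.723% higher and 1.18% lower of all tested genes. At an unadjusted p under 0.05 there were 8, and DESeq2 called 0. Of the 14 values, 13 lay above 0, as did 49.8% of those of all tested genes, with a median of 0.28. In RiboTag males 4 of 13 did, beside 50.4% of all tested genes, with a median of -0.07. In whole cell libraries 6 of 36 did, beside 43.0%, with a median of -0.84. A direction over the genes is not given as a result. Hist1h4c was at 2.73, 2.55, 3.20, 3.43 and 3.29 FPKM in D1 and 5.04, 3.95, 5.89, 4.06 and 5.43 in D2, which did not overlap. Its log2 fold change of 0.64 (SE 0.17, adjusted p = 0.0322) passed the adjusted p alone, as 4.52% of all tested genes did. Whether the change in D2 over D1 differed between females and males was tested as an interaction, which called 0 of 14 genes, as it called 0% of all tested genes in either direction. At an unadjusted p under 0.05 there were 7, and DESeq2 called 0. Hist2h2bb had the smallest p of the 14, with a difference of 0.64 (SE 0.18, adjusted p = 0.398).

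**Figure D5:**
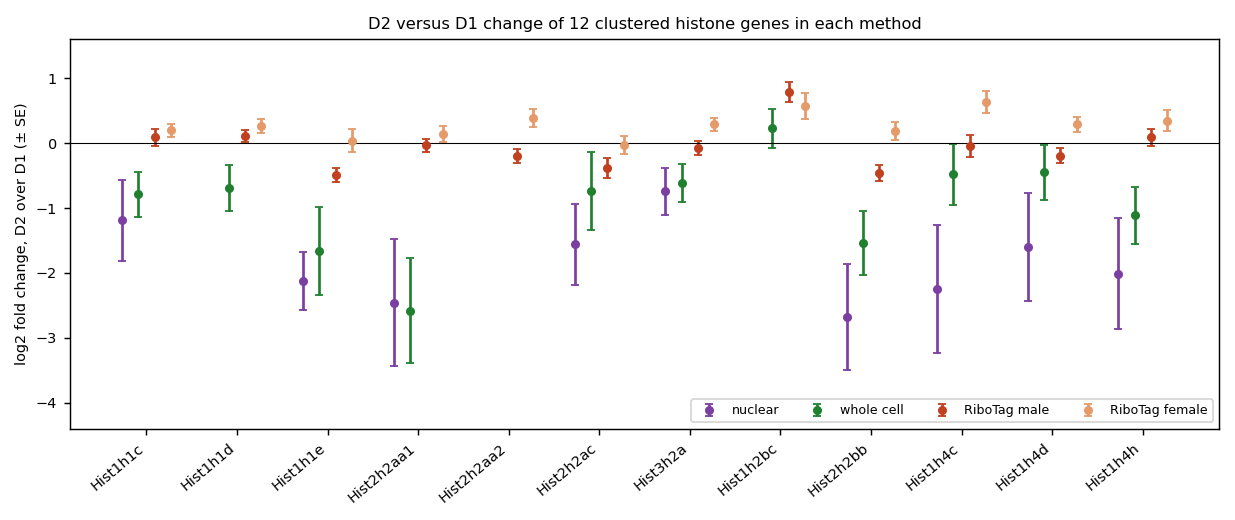
Log2 fold change of D2 over D1, with its standard error, for 12 clustered histone genes in each method (Hist1h1c, Hist1h1d and Hist1h2bc were chosen after their values were seen). In RiboTag the values lie between -0.49 and 0.79, and in nuclear and whole cell libraries the errors are wider, where only the nuclear value of Hist1h1e passed the call rule.

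Between RiboTag females and males, with cell type as a term, 0 of 14 genes were called in either direction, against 0% higher and 0.0418% lower of all tested genes. At an unadjusted p under 0.05 there were 2 genes, Hist1h4d (-0.24, SE 0.09, adjusted p = 0.452) and Hist2h4 (-0.33, SE 0.14, adjusted p = 0.493), and DESeq2 called 0. Hist2h2aa2 differed by -0.08 (SE 0.10, adjusted p = 0.899) and turned to 0.03 with library totals as the scale.

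Whether the change in D2 over D1 differed between methods was tested over all male libraries and 37 genes. Between RiboTag and whole cell, 0 genes differed in either direction, against 0.0836% higher and 0.0368% lower of all tested genes, with 5 at an unadjusted p under 0.05. Between nuclear and whole cell, 1 gene was higher and 6 were lower, against 6.12% and 15.8%. Between nuclear and RiboTag, 0 were higher and 10 lower, against 1.64% and 12.9%. Of these, Hist2h2aa1 differed by -3.62 (SE 0.88, adjusted p = 0.00622) and Hist1h4c by -3.41 (SE 0.88, adjusted p = 0.00932). Without the 4 sorted libraries in which 10 genes held over 50% of the counts, 0 of these were called lower between nuclear and RiboTag and 1 between nuclear and whole cell. Scaled by library totals, 4 were higher and 0 lower between nuclear and whole cell, and 0 were lower between nuclear and RiboTag.

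The factors that process histone mRNAs were measured beside the genes. Of 15 such genes, 14 were tested between RiboTag and whole cell, and 6 were higher and 1 lower in both cell types, where 21.3% (D1) and 21.9% (D2) of all tested genes were higher and 59.3% lower. Upf1, which takes part in histone mRNA decay, had a log2 fold change of 2.08 (SE 0.23, adjusted p = 4.26e-10) in D1, and the cleavage complex scaffold gene Sympk one of 1.68 (SE 0.19, adjusted p = 9.05e-10). Zfp473, which encodes a U7 snRNP-associated protein, had -1.94 (SE 0.47, adjusted p = 0.000337). These calls and values are on the TMM scale. With library totals as the scale the median of all tested genes moved from -1.86 to -5.44 in D1 and from -1.87 to -5.10 in D2. The sign of the listed genes on that scale was not checked.

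Of 18 markers of proliferation, 5 were higher and 10 lower in RiboTag D1 than in whole cell D1, and 3 higher and 10 lower in D2, against the same shares of all tested genes. Mki67, the common marker of cycling cells, had a log2 fold change of -1.45 (SE 0.26, adjusted p = 5.14e-06) in D1 and Top2a, a topoisomerase of dividing cells, -5.36 (SE 0.83, adjusted p = 6.06e-07). The replication clamp gene Pcna had 2.68 (SE 0.45, adjusted p = 2.05e-06) in D2. Summed over the list, levels were 2.43–3.44 FPKM in whole cell D1, 1.47–3.33 in nuclear D1 and 3.42–4.14 in RiboTag D1 males, with 1 gene at 0 in all RiboTag D1 male libraries. Of 11 replacement histones, 7 were higher and 1 lower in both cell types, beside 21.3% and 21.9% of all tested genes that were higher, among them the linker histone gene H1fx (4.12, SE 0.39, adjusted p = 1.5e-11 in D1). The proliferation and replacement calls are on the TMM scale too, and their sign with library totals as the scale was not checked.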

How the data were processed

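The authors sequenced ribosome-depleted, stranded paired-end libraries, aligned them to GRCm38 with HISAT2 2.0.5, named in the submitters' processing notes, and deposited raw counts per gene over whole gene bodies, made with featureCounts without regard to strand. Fragments on several genes were counted for each, and multi-mapping fragments were left out. The table has 49 columns, all used (0 left out), and repeat columns of 1 library number were summed, giving 47 libraries. Of 52636 genes, 52403 (99.56%) were matched to GENCODE vM21.

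edgeR 4.0.16 (quasi-likelihood test, TMM, Benjamini-Hochberg over all tested genes) in R 4.3.3 was the test, and DESeq2 1.42.0 an alternative. Genes needed an FPM (fragments scaled to library size) above 1 in 2 libraries. Within methods they also needed 1 FPKM in 1 library and at most 50000 in all (RiboTag: 0.1 FPKM in 2 libraries). A call needed an adjusted p of at most 0.05 and an absolute log2 fold change above 0.38. Within a method the D2 versus D1 calls also needed a mean count above the 25th percentile and, in nuclear libraries, a standard error below the 75th. The standard error was the absolute fold change over the root of the F statistic. Tests were checked on simulated data. Figures used Python 3.11.15 with matplotlib 3.10.9.

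The genes and lists were chosen with earlier results of these data known. Named genes were Hist2h2aa2, the 6 genes with the highest median FPKM per method, up to 6 called genes per comparison and direction, and up to 4 called genes of each other list, and any other gene is marked as chosen after its values were seen. The smallest level a library can show was taken as 3 counts. Replicate numbers of RiboTag males did not pair the libraries (same-number correlations from -0.03 to 0.15). Each sample was 1 mouse per the labels, and p-values measure the spread between these libraries.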

Additional observations from a re-analysis of the deposited data

Results flagged for a closer look

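Within groups of 4 to 10 libraries, 103 sets of values were tested for a library far from its group, of which chance gives about 1 in 20. In whole cell D1, number 1 stood apart for Hist2h2aa2 (0.0258 FPKM, 0 in the others) and Hist2h2aa1 (3.49, others 0.282–1.49). Number 5 stood apart for Hist2h2ac (7.92, others 0.674–3.05) and Hist2h4 (2.51, others 0.339–1.14). In whole cell D2, number 5 stood apart for Hist2h2bb (18.4, others 1.22–5.58), and number 1 for Hist1h4d (8.04, others 0.843–2.73) and Hist2h2ac (7.76, others 0.422–1.85). In nuclear D1, number 1 stood apart for Hist1h4h (7.97, others 0.210–2.66). In nuclear D2, number 7, the shallowest library, stood apart for Hist2h2aa2 (0.571, others 0–0.0907), Hist1h4d (0.860, others 0.0978–0.209) and Hist2h4 (0.462, others 0.167–0.227). In RiboTag D1 males, number 1 was low for Hist2h2aa2 (11.3, others 13.9–14.8).

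The change in D2 over D1 differed between nuclear and whole cell libraries by an interaction term of edgeR for Hist2h2ac (-2.26), Hist2h2bb (-2.42), Hist1h4h (-2.30), Hist1h4d (-2.80), Hist1h4c (-3.10), Hist1h2be (-1.03) and Hist1h2ac (3.95), with adjusted p from 0.00339 to 0.0472. Between nuclear and RiboTag libraries it differed for Hist2h2aa1 (-3.62), Hist2h2bb (-3.32), Hist3h2ba (-3.63), Hist3h2a (-1.77), Hist1h4h (-3.36), Hist1h4d (-2.79), Hist1h1e (-2.83) and Hist1h4c (-3.41), and for Hist1h1c (-2.47) and Hist1h2bc (-1.72), which were named after their values were seen, with adjusted p from 0.00622 to 0.0304. The part of the nuclear D1 libraries in which 10 genes held over 50% of the counts was measured by leaving them out with the whole cell library of that kind, after which 2 genes were higher and 1 lower between nuclear and whole cell, and 0 lower between nuclear and RiboTag. Scaled by library totals, 4 genes were higher and 0 lower between nuclear and whole cell, and 0 were lower between nuclear and RiboTag.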

How the results depend on the processing

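Counts are of called histone genes, and causes were not tested. Alternatives on library totals and on libraries left out were chosen after seeing the data. With DESeq2's test, whole cell D2 versus D1 had 1 lower and nuclear versus whole cell in D2 had 2 higher. Without a filter on low values, nuclear D2 versus D1 had 7 lower, RiboTag male 1 higher and 3 lower, RiboTag female 2 higher, nuclear versus whole cell 6 (D1) and 12 (D2) higher, and RiboTag versus whole cell 35 (D1) and 43 (D2) higher. With the adjusted p alone, nuclear had 2 lower, RiboTag male 1 higher and 2 lower, and RiboTag female 1 higher. With background subtracted, nuclear had 2 lower, nuclear versus whole cell in D2 had 0 higher, and RiboTag versus whole cell in D1 had 10 higher and 1 lower. With library totals as the scale, nuclear versus whole cell had 1 higher and 25 lower in D1 and 2 higher in D2, RiboTag versus whole cell had 1 higher and 28 lower in D1 and 5 higher and 17 lower in D2, and the difference of nuclear from whole cell in the D2 over D1 change had 4 higher and 0 lower, and that from RiboTag 0 lower. With DESeq2's size factors, nuclear minus whole cell had 2 lower. Without the 4 libraries in which 10 genes held over 50% of the counts, nuclear had 0 lower, nuclear versus whole cell 18 lower in D1 and 2 higher in D2, nuclear minus whole cell 2 higher and 1 lower, and nuclear minus RiboTag 0 lower. The sign with library totals was checked for Hist2h2aa2 and for up to 6 called genes per comparison and direction. Of these values the following turned: Hist2h2aa2 female versus male (0.03), nuclear minus whole cell (1.71) and nuclear minus RiboTag (0.54), Hist1h2be nuclear versus whole cell in D1 (-0.47) and nuclear minus whole cell (0.50), Hist1h1e nuclear (-0.10) and RiboTag (-0.42) versus whole cell in D1, and Hist1h3d RiboTag versus whole cell in D1 (-1.23). Genes outside this check turned as well, among them Hist1h4c, Hist1h4d and Hist2h2ac in RiboTag versus whole cell in D1. Hist1h4h nuclear minus whole cell turned to 0.92 without the 4 libraries. Leaving out 1 library at a time, done only in the groups of 5 (nuclear D2 and both RiboTag female groups), gave 1 lower in nuclear D2 versus D1 and 16–17 lower and 1 higher in nuclear versus whole cell in D2, and 0 in RiboTag females and between the sexes. A replicate block in RiboTag males (the numbers do not pair the libraries, 1 of 6 correlating best with its own number) gave 0 higher and 1 lower. No replicate block was run in the other comparisons. Counting depth limits genes of few counts, and floors cover counting error only.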
